A study of Brassica napus with 112 samples.

Results

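The 150 genes described here are the rapeseed genes whose transcript level in developing seeds was higher in season 2 than in season 1 by the largest margin. Rapeseed (Brassica napus) is an allotetraploid oil crop with an A and a C subgenome, so most genes exist as pairs of closely related copies. The members were chosen from the seed libraries alone. Of 101040 genes in the table, 9913 had a mean value of at least 20 over the 56 seed libraries, and 1491 of these (15.0%) were higher in season 2 in all 8 combinations of hybrid, treatment and sampling time. The 150 with the largest mean of the 8 differences on the log2(value + 0.5) scale were taken. The seed season difference is therefore given as a description, with no test.

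The study sampled seeds and siliques of the spring hybrids Lumen and Solar from field plots in 2 growing seasons, labelled S2020 (season 2) and S2019 (season 1). Heated plots were kept about 5 °C above ambient under film chambers from the start of flowering to 15 days after flowering (DAF), and control plots were not manipulated. The film also intercepted light, so heat and shading cannot be told apart. Tissue was taken at 14 DAF and 7 DAF, plants of a plot were pooled, and each combination was sequenced in 4 libraries from season 2 and in 3 from season 1. Heat was assigned to main plots in season 1 and was randomized within blocks in season 2. Each season was harvested once, so weather, harvest year and any difference in library handling between the seasons cannot be told apart.

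A silique is the pod of rapeseed. Its wall derives from the ovary and photosynthesizes, and it supplies the seeds inside it with assimilates. Between both sampling times the young seed passes from early endosperm and embryo growth towards filling, when storage lipid and protein begin to accumulate. Season, in a field trial, sums temperature, radiation and water supply over the whole growth of the plant.

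The deposited table names each gene only by its identifier, so few members can be described by function. None of the 10 hub transcription factors of the study is a member. The term lists of the study place 3 members, and those lists were built on these same samples: BnaC09g51980D under nucleobase-containing compound kinase activity, BnaA08g04600D under chloroplast envelope, and BnaC01g37340D under RNA helicase activity. RefSeq symbols matched 5 members, all protein-coding, and added no name. The A subgenome holds 72 members, the C subgenome 76, and 2 are not assigned to either. Their shares (48.0%, 50.7% and 1.33%) lie beside 46.9%, 52.8% and 0.343% of the 9913 genes at the same minimum.

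The values are whole numbers normalized by the authors and sum to 890194 to 1658548 in the seed libraries and to 909005 to 1245569 in the silique libraries. The number of reads behind a value cannot be recovered from them, so the spread between libraries is the only error given. One season 1 seed library (Solar control, 14 DAF, replicate 1) had 33.5% of its total in its 10 highest genes, against a median of 5.23%. A season 2 seed library (heated Lumen, 7 DAF, replicate 4) had 66990 genes listed at 0, against a median of 47897. Without both libraries the rule picked 117 of the 150 members again. The tissue labels were checked with the copy of INO1, an integument gene, that the study names. This gene, BnaC05g18750D, had a value of 16.8 ± 7.21 in seeds (SD, n = 56) and 0.339 ± 0.611 in siliques (SD, n = 56).

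The members' season difference in seeds had a median of 0.96 on the log2 scale and ran between 0.71 and 3.29, whereas the median over all 9913 genes was 0.07. The edge of the list is not a step in the data. BnaC07g47340D, at rank 150, differed by 0.712, and BnaC01g39070D, the next gene, by 0.711. The members together made up 1.29% to 2.09% of the summed values of a season 2 seed library (median 1.62%) and 0.553% to 1.00% of a season 1 seed library (median 0.824%). These ranges do not overlap, but the rule picked the members for being higher in season 2 in these same libraries. Gene by gene the seasons overlapped much more. Only BnaC07g15050D and BnaA09g49150D had every season 2 seed library above every season 1 seed library, which are also the only such genes among the 9913 (0.0202%). BnaC07g15050D had values of 44 to 81 (median 52.5) in season 2 and 17 to 43 (median 29.5) in season 1, and BnaA09g49150D had 171 to 299 (median 225.5) in season 2 and 102 to 167 (median 135) in season 1. In these bulk samples a change in the share of a cell type and a change in RNA per cell cannot be told apart.

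The season difference was not of one size across conditions. Of the 150 members, 66 had their smallest difference in the Solar control at 14 DAF, where the median over the members was 0.61. The median was highest in heated Solar at 7 DAF, at 1.18, where 37 members had their largest difference. The Solar control at 7 DAF had a median of 1.12 and the Lumen control at 7 DAF 0.79.

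The gene at rank 1, BnaA10g27080D, differed by 3.29 on average. Its values were 8 to 122 (median 60) in the 32 season 2 seed libraries and 0 to 56 (median 7.5) in the 24 season 1 seed libraries. The difference was largest in Lumen. Heated Lumen seeds at 7 DAF had 68.3 ± 45.1 (SD, n = 4) in season 2 and 0.333 ± 0.577 (SD, n = 3) in season 1, and Lumen control seeds at 14 DAF had 63.3 ± 16.8 in season 2 and 0.667 ± 1.15 in season 1. In heated Solar seeds at 14 DAF the values were 56.8 ± 26.9 (SD, n = 4) in season 2 and 25.7 ± 12.9 (SD, n = 3) in season 1. The 5 seed libraries in which BnaA10g27080D was listed at 0 were all season 1 Lumen libraries, so its log2 differences in Lumen depend on the pseudocount. Averaged over both seasons this gene was lower in Lumen than in Solar. The change was -1.75 (standard error 0.27) in seeds with an adjusted p of 5.61e-07 and -2.25 (standard error 0.33) in siliques with an adjusted p of 1.50e-07 (limma with Benjamini-Hochberg adjustment). These averages do not describe season 2. Season 1 seeds had 0 to 10 in Lumen and 3 to 56 in Solar, but season 2 seeds had 8 to 122 and 21 to 93. Season 1 siliques had 0 to 13 in Lumen and 9 to 146 in Solar, but season 2 siliques had 6 to 114 and 6 to 139.

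**Figure D1:**
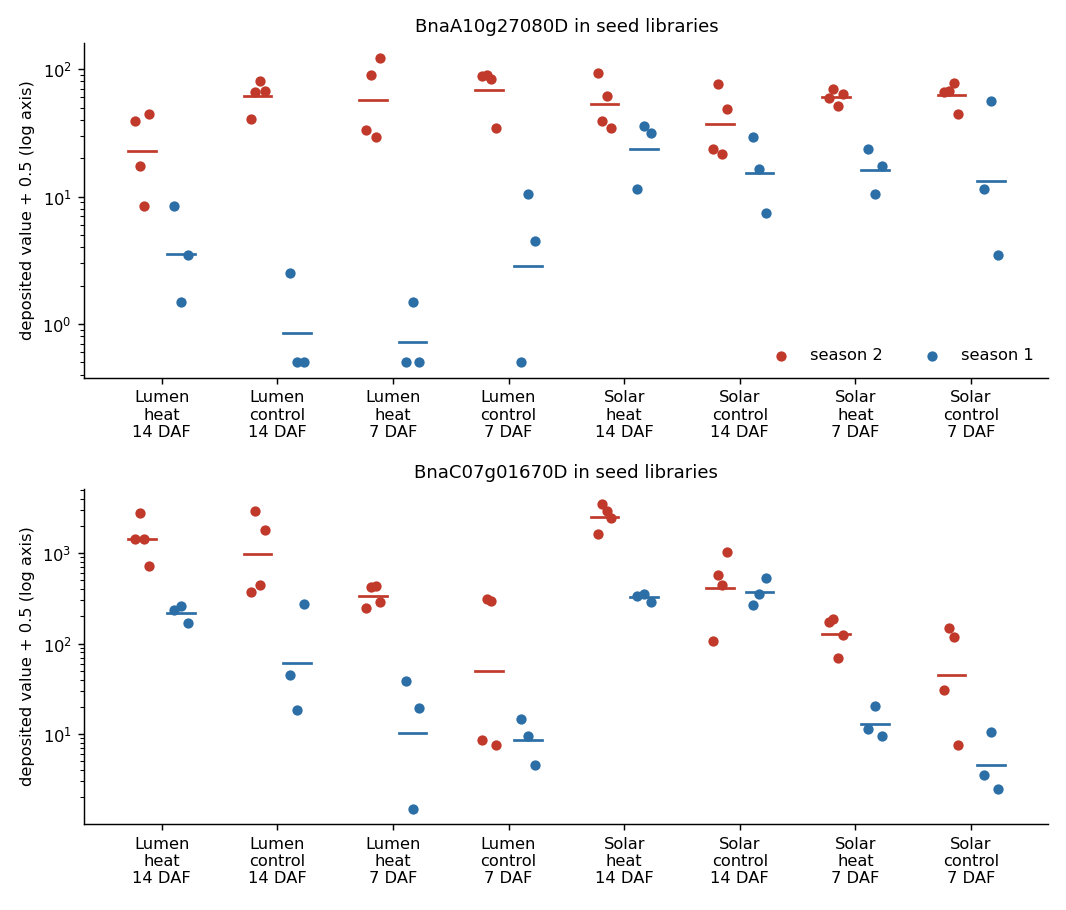
Deposited value plus 0.5, on a log axis, of the genes at ranks 1 (top) and 2 (bottom) in each seed library, by hybrid, treatment and days after flowering; red points are season 2 (4 libraries per condition), blue points season 1 (3 per condition), and bars are geometric means. BnaA10g27080D was at or near 0 in most season 1 Lumen libraries, and BnaC07g01670D differed between sampling times as well as seasons, with little season difference (0.15) in the Solar control at 14 DAF.

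The gene at rank 2, BnaC07g01670D, had values of 7 to 3468 (median 396) in season 2 and 1 to 530 (median 29) in season 1. Heated Solar seeds at 14 DAF had 2604 ± 787 (SD, n = 4) in season 2 and 324 ± 30.1 (SD, n = 3) in season 1, while Solar control seeds at 14 DAF had 536 ± 378 in season 2 and 384 ± 134 in season 1. The season difference of BnaC07g01670D was thus 2.95 in the heated plots and 0.15 in the control plots at that time. The members with the highest seed level were BnaC05g45940D, at rank 103, and BnaC03g35680D, at rank 59. BnaC05g45940D had 862 to 3506 (median 2137) in season 2 and 977 to 1472 (median 1221.5) in season 1, and BnaC03g35680D had 879 to 2840 (median 1378) in season 2 and 437 to 1268 (median 670.5) in season 1. Their season differences were small beside those of ranks 1 and 2, at 0.84 and 1.05, but alike across the 8 combinations, with standard deviations of 0.21 and 0.24.

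The members with an annotated term overlapped between the seasons. BnaC09g51980D had 0 to 87 (median 27) in season 2 and 1 to 42 (median 12) in season 1. BnaA08g04600D had 14 to 88 (median 32) in season 2 and 7 to 32 (median 21) in season 1. BnaC01g37340D had 8 to 51 (median 33.5) in season 2 and 3 to 37 (median 23.5) in season 1.

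The members fall into a seed-restricted and a shared group when their level in siliques is read. With a mean silique value of 5 as the dividing line, which was chosen after the values were seen, 34 members were seed-restricted and 116 were shared with siliques. The 34 had a median seed mean of 46.4 and a median silique mean of 0.527. The 116 had a median seed mean of 39.6 and a median silique mean of 28.1. The line is not sharp, since 16 members had a silique mean of 2.5 to 10. Seed-restricted members took 24 of the first 50 ranks, shared members 26, and their median season differences were 1.33 and 0.88.

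The groups differed in how even their season difference was. In the shared group the mean log2 level of the 116 genes ran from 5.51 to 6.24 in season 2 seed libraries and from 4.41 to 5.10 in season 1 seed libraries, without overlap, and the median standard deviation of a gene's 8 differences was 0.34. Some separation of the seasons follows from the rule, which picked both groups from these seed libraries. In the seed-restricted group the mean log2 level ran from 3.00 to 7.02 in season 2 and from 2.26 to 5.91 in season 1, with wide overlap, and the median standard deviation was 0.85. The median season difference of the 34 genes was 2.34 in the Solar control at 7 DAF and 2.29 in heated Lumen at 7 DAF, but 0.74 in the Lumen control at 7 DAF and 0.55 in the Solar control at 14 DAF.

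Libraries of 1 condition also differed in the seed-restricted level. Lumen control seeds at 7 DAF in season 2 had mean log2 levels of 5.85 and 6.03 in replicates 2 and 3 and of 3.00 and 3.14 in replicates 1 and 4. Solar control seeds at 7 DAF in season 2 had 6.14 and 5.89 in replicates 2 and 3 and 3.66 and 4.00 in replicates 1 and 4. The higher pair in each condition lay within the range of season 2 seeds at 14 DAF (4.90 to 7.02), and the lower pair within that of season 1 seeds at 7 DAF (2.26 to 4.29). The 34 genes moved together in this respect. Their median pairwise correlation was 0.59 over the 56 seed libraries and 0.65 after the condition means were removed, whereas for the 116 shared genes it was 0.51 and 0.17. These correlations are descriptions over libraries that share conditions.

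**Figure D2:**
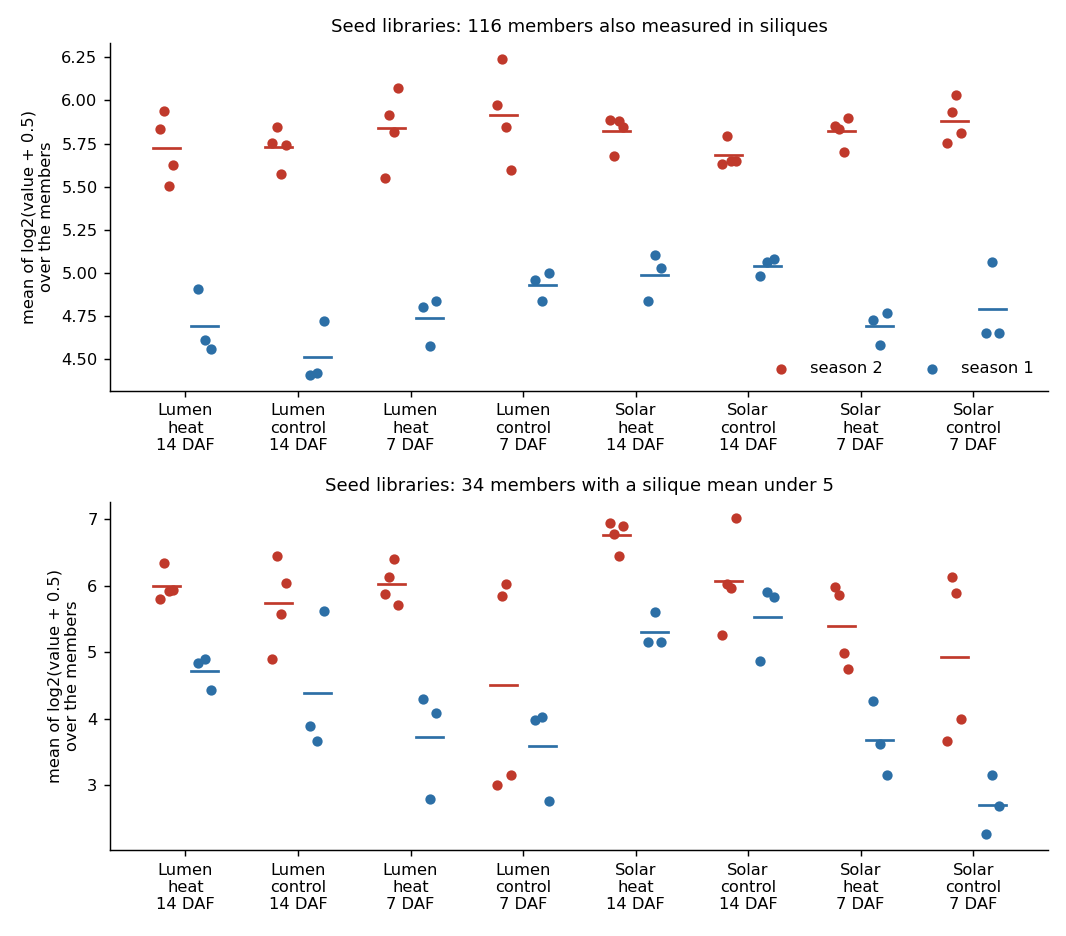
Mean of log2(value + 0.5) over the 116 shared members (top) and the 34 seed-restricted members (bottom) in each of the 56 seed libraries, by condition; red points are season 2, blue points season 1, and bars are condition means. The shared level lay at 5.51 to 6.24 in season 2 and at 4.41 to 5.10 in season 1, while the seed-restricted level of season 2 controls at 7 DAF split into libraries near 6 and libraries at 3.00 to 4.00.

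Some members are not independent measurements. BnaA05g13800D and BnaC06g10890D, at ranks 15 and 16, had identical values in every library. Their identifiers place them on the A and the C subgenome, and how they are related was not examined. The neighbouring identifiers BnaC01g36170D and BnaC01g36180D, at ranks 34 and 35, also had identical values in every library. What each identifier of such a pair contributes cannot be told apart from these values, so each is uncertain for the single gene. Neighbouring identifiers were also BnaC07g25590D and BnaC07g25600D (correlation 0.92 over the 56 seed libraries) and BnaUnng00730D and BnaUnng00740D (0.88).

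Siliques were not used by the rule and gave a test of the same contrast in other libraries of the same field trials. As each season was harvested once, p-values for season measure the spread between libraries and not that between seasons. Of the 121 members with enough signal in siliques, 89 were higher in season 2 and 1 was lower at an adjusted p under 0.01. Among all 54752 silique genes tested 15.2% were called, 7.32% higher and 7.92% lower, and among those with the same minimum in seeds 12.3% were higher. All 89 belong to the shared group, whose median silique difference was 0.66, against -0.01 over all genes tested. Of the 34 seed-restricted members 5 could be tested and none was called by limma, with 1 at an unadjusted p under 0.05. Of the 449 tested genes with the same minimum and a silique mean under 5, 0.445% were higher and 32.5% lower, with a median difference of -0.61. In siliques 71 members were higher in season 2 in all 8 combinations, against 2.61% of all genes tested. The silique difference was smaller than the seed difference in 79 of the 89 genes, which had been ranked on their seed values. Across the 116 shared genes the differences of both tissues were correlated (Pearson r = 0.61, Spearman rho = 0.47, across genes, which are not independent replicates).

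BnaC02g44980D, at rank 5, had the largest silique change. Its silique values were 0 to 81 (median 18, n = 32) in season 2 and 0 to 83 (median 0, n = 24) in season 1, a change of 3.32 (standard error 0.45, adjusted p = 3.51e-07, limma). It was listed at 0 in all season 1 Lumen siliques except in the control at 7 DAF. In Solar controls at 7 DAF its mean was not higher in season 2, with 38.3 ± 30.7 (SD, n = 4) in season 2 and 44.7 ± 35.1 (SD, n = 3) in season 1. BnaA10g27080D had 6 to 139 (median 47.5) in season 2 siliques and 0 to 146 (median 9.5) in season 1 siliques, a change of 2.69 (standard error 0.33, adjusted p = 4.97e-08, limma). Its season 1 Lumen siliques were at 0 to 13 and its season 1 Solar siliques at 9 or more.

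One member went the other way in siliques. BnaUnng00730D had 1 to 27 (median 9) in season 2 siliques and 5 to 65 (median 19.5) in season 1 siliques, a change of -1.30 (standard error 0.25, adjusted p = 0.000125, limma). In seeds, where it is far more abundant, it had 89 to 1465 (median 486.5) in season 2 and 67 to 1157 (median 334) in season 1. Without replicate 3 of each condition its silique change was -1.05 with an adjusted p of 0.0162.

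**Figure D3:**
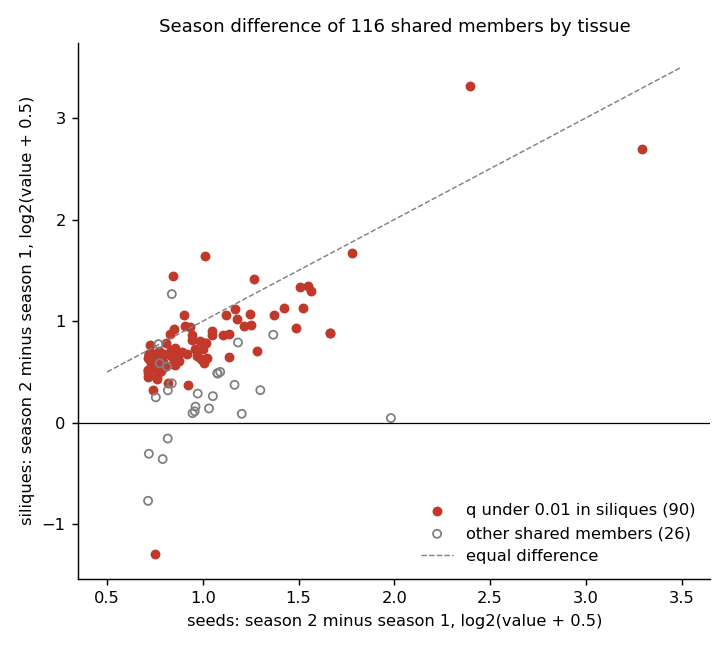
Season 2 minus season 1 in siliques (vertical) against seeds (horizontal), both on the log2(value + 0.5) scale, for each of the 116 shared members; red points had an adjusted p under 0.01 in siliques (89 higher, 1 lower), open points did not, and the dashed line marks equal differences. Most points lie above 0 and below the dashed line, and BnaUnng00730D is the red point at -1.30.

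The season difference in siliques depended on sampling time for 4 members (interaction, adjusted p under 0.01, limma, against 2.37% of all genes), namely BnaA04g28840D, BnaA06g12670D, BnaA07g20750D and BnaC08g24870D. In each it was smaller at 14 DAF, and 92 of the 121 members tested (76%) had this sign of the interaction, whether called or not. Of all genes tested 47.6% had it, and of those with the same minimum in seeds 58.4%, and members are not independent of each other. BnaA04g28840D differed between the seasons by 0.15 at 14 DAF and by 1.04 at 7 DAF, an interaction of -0.89 (standard error 0.18, adjusted p = 0.00148, limma). The median season difference of the 116 shared genes was 0.41 in the Solar control at 14 DAF, 0.94 in heated Lumen at 7 DAF and 1.08 in heated Solar at 7 DAF. With 14 DAF libraries alone 47 members were called, against 5.73% of all genes, and with 7 DAF libraries alone 71 were called, against 8.81%.

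The season difference in siliques depended on the hybrid for 2 members (limma, against 4.45% of all genes). BnaA10g27080D differed between the seasons by 4.74 in Lumen siliques and by 0.64 in Solar siliques, an interaction of 4.10 (standard error 0.66, adjusted p = 4.62e-05, limma). BnaCnng26280D differed by 0.09 in Lumen and by 1.09 in Solar siliques, an interaction of -1.0 (standard error 0.19, adjusted p = 0.000437, limma).

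Libraries whose title carries the letter B after the library number stood out among the siliques. What the letter marks is not given in the sources used here. It is on 2 of the season 1 silique libraries. In the Solar control at 7 DAF the library with the letter (replicate 3) had a shared level of 5.15 on the log2 scale, against 4.17 in the mean of both other season 1 libraries and 5.22 in the mean of the season 2 libraries. That is 93.1% of the way to season 2. In heated Solar at 7 DAF the library with the letter (replicate 2) had 4.71, against 4.02 in the other season 1 libraries and 5.21 in season 2, or 57.8% of the way. The other 22 season 1 silique libraries lay at -47.2% to 49.2% on this measure, with a median of -2.41%. BnaA10g27080D had a value of 146 in that Solar control library and of 9 and 10 in its replicates, and a value of 56 in the heated library and of 19 and 17 in its replicates.

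The season 1 seed library with the letter (Solar control, 7 DAF, replicate 2) had a shared level of 5.06, against 4.65 in its replicates and 5.88 in season 2, or 33.2% of the way, and the other 23 season 1 seed libraries lay at -30.4% to 27.8%. BnaA10g27080D had 56 in this library and 11 and 3 in its replicates. The letter is also on 3 season 2 seed libraries, all at 7 DAF. In each of the 6 libraries with the letter the shared level was the highest of its condition. The column of the heated silique library is named with H, as all season 2 heated libraries are, whereas the other season 1 heated libraries have T. Genes outside the list also lay part of the way to season 2 in both silique libraries with the letter from season 1. Among those called for season in siliques without these libraries, the Solar control library was 49.7% of the way to season 2 for the 3974 genes higher in season 2 and 57.7% for the 4382 lower ones. The heated library was 25.2% of the way for the higher and 26.3% for the lower genes. These genes were picked with the replicates that served as the reference, which alone can place a left-out library towards season 2. No other season 1 library was measured in this way, so these values have no baseline. Without the letter B libraries the silique test called 91 members, 89 of them among the 90 called with all libraries, and the rule in seeds picked 143 of the 150 members again. Whether library handling took part in the season difference was not tested.

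**Figure D4:**
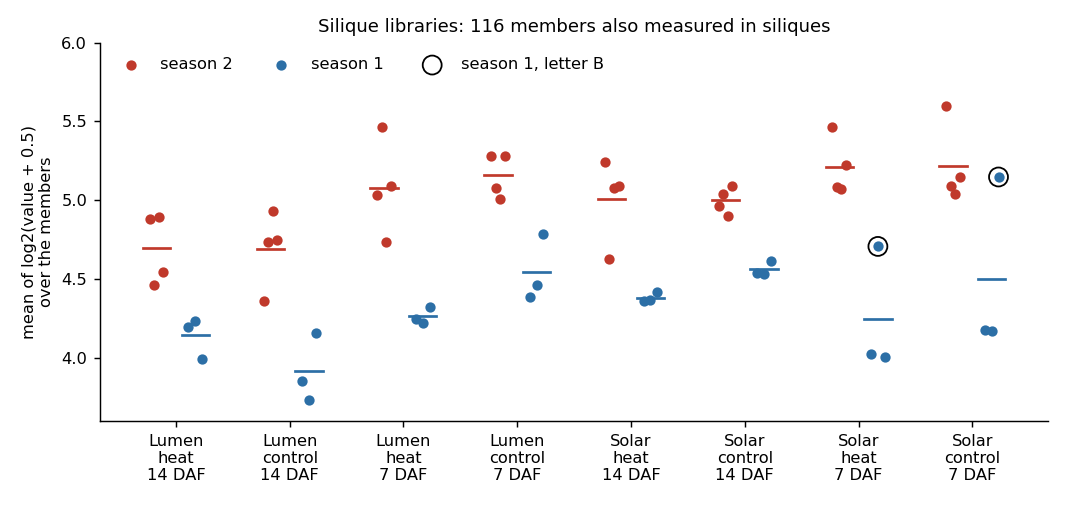
Mean of log2(value + 0.5) over the 116 shared members in each of the 56 silique libraries, by condition; red points are season 2, blue points season 1, bars are condition means, and open circles mark the season 1 libraries with the letter B. The circled libraries, at 4.71 and 5.15, lie above the other season 1 libraries of their conditions, and the level of the remaining season 1 libraries ran from 3.73 to 4.79.

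Seed-restricted members were found in siliques at traces that differed between libraries. Their summed value was 2 to 100 (median 16) in season 2 siliques and 2 to 328 (median 14.5) in season 1 siliques, against 527 to 9720 (median 3442) in season 2 seeds and 265 to 3237 (median 868.5) in season 1 seeds. The highest silique sums, 328, 214 and 173, were in heated Lumen libraries of season 1. The part of seed tissue in silique libraries was not tested. Without the 4 libraries with the highest seed-restricted level the silique season test called 85 members, 84 of them called with all libraries.

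In seeds at 14 DAF 36 members were higher and 52 lower than at 7 DAF (adjusted p under 0.01, limma). Of all genes tested 37% were called, 20.7% higher and 16.3% lower. In the seed-restricted group 21 of 34 were higher and none was lower, with a median change of 1.01. Of the 926 genes with the same minimum in seeds and a silique mean under 5, these members included, 61.2% were higher and 13.6% lower, so the 61.8% of the seed-restricted group that rose is close to this share. In the shared group 15 of 116 were higher and 52 lower, with a median of -0.20, whereas of the 8983 genes with the same minimum and a higher silique mean 22.7% were higher and 30.3% lower.

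BnaC07g01670D had the largest rise, with values of 18 to 3468 (median 444.5) at 14 DAF and 1 to 435 (median 25) at 7 DAF (n = 28 each), a change of 4.00 (standard error 0.37, adjusted p = 2.42e-12, limma). BnaC02g06590D, at rank 3 and also seed-restricted, had 3 to 573 (median 73) at 14 DAF and 0 to 76 (median 5) at 7 DAF, a change of 3.78 (standard error 0.44, adjusted p = 8.50e-10, limma). For both, the highest 7 DAF libraries reached the range of the 14 DAF libraries. The largest fall was that of BnaC01g07710D, with 5 to 46 (median 17) at 14 DAF and 9 to 168 (median 48) at 7 DAF, a change of -1.31 (standard error 0.15, adjusted p = 6.62e-10, limma). BnaC08g24870D had 40 to 109 (median 63) at 14 DAF and 55 to 158 (median 117.5) at 7 DAF, a change of -0.74 (standard error 0.05, adjusted p = 3.01e-16, limma).

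In siliques 6 members were higher and 60 lower at 14 DAF, against 17.2% of all genes tested higher and 17.1% lower (34.3% in all). Among the genes with the same minimum in seeds 16.8% were higher and 30.5% lower. With season 1 alone 5 members were called in all, and with season 2 alone 64. These fits used 24 and 32 silique libraries, and the counts are not a test of a difference between the seasons. The shares of all genes called in the same fits are not given here, so the counts are not read as a trait of the members. BnaAnng05060D had 1 to 34 (median 11.5) at 14 DAF and 0 to 11 (median 1) at 7 DAF, a change of 2.75 (standard error 0.25, adjusted p = 4.02e-12, limma). BnaA04g22100D had 5 to 18 (median 11.5) at 14 DAF and 0 to 9 (median 4) at 7 DAF, a change of 1.34 (standard error 0.17, adjusted p = 8.23e-09, limma). BnaC01g07710D, which fell in seeds, also fell in siliques, with 19 to 143 (median 57.5) at 14 DAF and 19 to 873 (median 238.5) at 7 DAF, a change of -1.51 (standard error 0.21, adjusted p = 1.25e-07, limma). BnaA03g00540D, a seed-restricted member with low silique values, had 0 to 11 (median 0) at 14 DAF and 0 to 10 (median 2.5) at 7 DAF, a change of -1.12 (standard error 0.35, adjusted p = 0.00801, limma). This call was lost without any 1 replicate number, without a filter on low values and with season 1 alone (adjusted p of 0.0105 to 0.393, limma). Of the 56 members called for sampling time in both tissues, 55 changed in the same direction and 50 were lower at 14 DAF in both. The share over all genes called in both tissues was not computed.

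**Figure D5:**
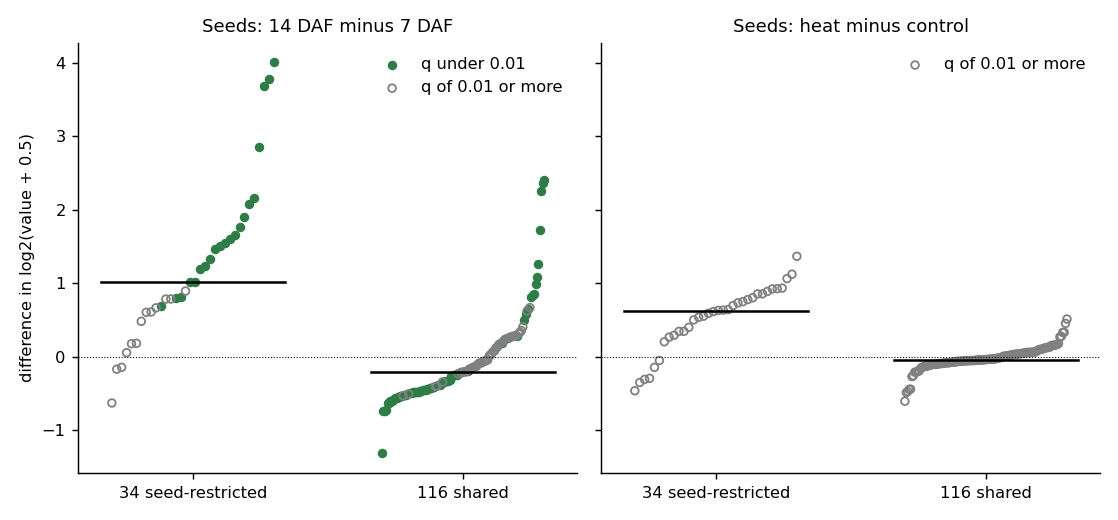
Change of each member in seeds between 14 DAF and 7 DAF (left) and between heat and control (right), on the log2(value + 0.5) scale, sorted within the 34 seed-restricted and the 116 shared members; filled green points had an adjusted p under 0.01, open points did not, and bars are group medians. Seed-restricted members lay mostly above 0 in both panels (medians 1.01 and 0.62), shared members around or below 0 (medians -0.20 and -0.04), and no member was called for heat.

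Heat gave no call among the members in seeds. No member passed an adjusted p under 0.01 with limma, 37 had an unadjusted p under 0.05, and 1.64% of all genes tested were called (0.999% higher and 0.641% lower). The unadjusted counts were uneven between the groups. Of the 34 seed-restricted members 24 had an unadjusted p under 0.05, and their median change was 0.62, while of the 116 shared members 13 did and the median was -0.04. The share at an unadjusted p under 0.05 over all genes was not computed. The seed-restricted genes moved together across libraries (median pairwise correlation 0.59), so their counts are not separate results. Genes with the same minimum in seeds and a silique mean under 5 had a median heat change of 0.35, and 8.10% of them were called higher. When the test was limited to genes with a mean of 20 or more, 2 members were called, and at an adjusted p under 0.05 the count was 6. The interaction of heat and sampling time called no member in seeds, against 0.114% of all genes tested (adjusted p under 0.01, limma). At an unadjusted p under 0.05 there were 27 members, and the share of all genes at that level was not computed.

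In siliques 3 members were lower under heat and none was higher, whereas of all genes tested 5.09% were called, 2.9% lower and 2.19% higher. BnaC06g06830D had 2 to 28 (median 9) in heated and 5 to 60 (median 16) in control siliques, a change of -0.80 (standard error 0.19, adjusted p = 0.00350, limma). It was not called in either season alone or without replicate 1, 2 or 3 (adjusted p of 0.0132 to 0.281, limma). BnaCnng26280D had 2 to 16 (median 7) in heated and 4 to 24 (median 11) in control siliques, a change of -0.61 (standard error 0.10, adjusted p = 1.46e-05, limma), and was not called without replicate 2 (adjusted p = 0.0113, limma). The other was BnaA02g14630D, named because the count is small, with 3 to 21 (median 9) in heated and 5 to 27 (median 14) in control siliques and a change of -0.60 (standard error 0.10, adjusted p = 7.15e-05, limma). The values of heated and control libraries overlapped in all of them. With season 1 alone none was called (limma, 10 members at an unadjusted p under 0.05).

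The hybrids differed in 63 members in seeds (42%), 32 higher in Lumen and 31 higher in Solar. Of all genes tested 36.9% were called, 16.9% higher in Lumen and 20% higher in Solar, and of those with the same minimum 46.2%. The shared group held 55 of these 63 calls, which is 47.4% of its members, against 47.3% of the genes with the same minimum and a silique mean of 5 or more. Of the 34 seed-restricted members 8 were called (23.5%), against 35.1% of the genes with the same minimum and a silique mean under 5. BnaA09g19090D, at rank 8, had values of 21 to 1165 (median 196) in Lumen and 2 to 101 (median 18.5) in Solar seeds, a change of 3.75 (standard error 0.31, adjusted p = 2.43e-14, limma). Heated Lumen seeds at 7 DAF had 824 ± 260 (SD, n = 4) in season 2 and 76.7 ± 47.2 (SD, n = 3) in season 1, and heated Solar seeds at 7 DAF had 46.5 ± 38.7 in season 2 and 4.33 ± 2.08 in season 1. BnaA03g29210D had 24 to 82 (median 39) in Lumen and 1 to 22 (median 6) in Solar seeds, without overlap, a change of 2.86 (standard error 0.18, adjusted p = 2.99e-18, limma).

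BnaA08g22270D was higher in Solar, with 0 to 18 (median 1) in Lumen and 4 to 182 (median 60.5) in Solar seeds, a change of -4.88 (standard error 0.27, adjusted p = 2.53e-20, limma). Lumen seeds were near 0 in both seasons, so the season difference of this gene is one of Solar seeds in absolute terms. BnaA10g22200D had 0 to 22 (median 2) in Lumen and 10 to 73 (median 42) in Solar seeds, a change of -4.39 (standard error 0.36, adjusted p = 2.46e-14, limma).

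In siliques 46 of the 121 members tested (38.0%) differed between the hybrids, 16 higher in Lumen and 30 higher in Solar. Of all genes tested 36.8% were called, 17.9% higher in Lumen and 18.9% higher in Solar. Among the genes with the same minimum in seeds 39.7% were called, so the share of the members is close to both. BnaA03g29210D had 4 to 34 (median 12.5) in Lumen and 0 to 4 (median 1) in Solar siliques, a change of 3.01 (standard error 0.17, adjusted p = 1.35e-19, limma). BnaC07g34290D had 25 to 90 (median 54.5) in Lumen and 7 to 31 (median 12) in Solar siliques, a change of 1.96 (standard error 0.10, adjusted p = 9.61e-21, limma). BnaC08g11830D had 0 to 24 (median 2.5) in Lumen and 16 to 111 (median 39) in Solar siliques, a change of -4.17 (standard error 0.31, adjusted p = 8.28e-16, limma). BnaA10g22200D had 0 to 20 (median 0) in Lumen and 11 to 70 (median 23.5) in Solar siliques, a change of -4.08 (standard error 0.37, adjusted p = 6.68e-13, limma). All 39 members called for hybrid in both tissues differed in the same direction. The same share over all genes called in both tissues was not computed, so it is not known whether this is particular to the members.

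The change between sampling times depended on the hybrid for 5 members in seeds (adjusted p under 0.01 for the interaction, limma, against 1.11% of all genes tested). In all 5 the change from 7 DAF was less positive or more negative in Lumen, and 127 of the 150 members (84.7%) had this sign, whether called or not. Of all genes tested 44% had it, and of those with the same minimum in seeds 56.1%, and members that move together across libraries are not independent of each other. The largest difference was that of BnaC07g25600D, at rank 4, with a rise of 1.16 on the log2 scale in Lumen seeds and of 4.54 in Solar seeds. No member was called for the interaction of hybrid and heat (limma, 1 at an unadjusted p under 0.05). Nor was any other of the 53350 genes tested in seeds.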

How the data were processed

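Stranded total RNA libraries of 56 seed and 56 silique samples were quantified by the authors with kallisto 0.46 against annotated rapeseed transcripts and tested in Sleuth. Whole-number expression values were deposited by the authors and taken here as a score. They behave as rescaled and rounded relative abundances, and their scaling is not given in the sources used here. Samples were grouped by their labels.

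Values were transformed to log2(value + 0.5). Within each tissue limma 3.58.1 in R 4.3.3 fitted hybrid, heat, sampling time and season with all interactions, with a trend in the prior variance, for genes that reached 1 in 47% or more of a tissue's libraries (53350 in seeds, 54752 in siliques). p-values were adjusted over all genes tested by the Benjamini-Hochberg method, and an adjusted p under 0.01 was called. A change is the mean of the first group named minus that of the second, over the other factors. Rounding limits low values most, and values near 0 depend on the pseudocount. The field was sampled with 3 plots per treatment according to the labels while season 2 has 4 libraries per condition, so p-values may measure in part a spread within plots. Plots were sampled at both times, and in season 1 heat was assigned to main plots that held both hybrids. The main fits treated all libraries of a tissue as independent, so their p-values do not take this structure into account. The code was tested on simulated data.

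Per comparison, the text names up to 2 called members with the largest change in each direction, plus ranks 1, 2, 150 and 151 and the highest seed level. Other members named were chosen after their values were seen. The members and lists were chosen with earlier results of these data known. Alternatives were a pseudocount of 5, other filters, median-ratio rescaling, no interactions, an adjusted p under 0.05, a replicate block, single seasons, and left-out replicates or libraries. No sequence is shown, as the references used here hold none for these genes.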

Additional observations from a re-analysis of the deposited data

Results flagged for a closer look

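The season difference in siliques differed between the hybrids by a test of the difference itself (limma interaction, adjusted p under 0.01) in BnaA10g27080D, by 4.10 for Lumen minus Solar on the log2 scale, and in BnaCnng26280D, by -1.0. Without the season 1 silique libraries with the letter B these values were 3.64 (adjusted p = 0.000198) and -0.98 (adjusted p = 0.00146). BnaA10g27080D was listed at 0 in several season 1 Lumen libraries, so its value rests in part on the pseudocount.

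The season difference in siliques also differed between the sampling times in 4 members. For 14 DAF minus 7 DAF it was -0.89 in BnaA04g28840D, -0.63 in BnaA06g12670D, -0.59 in BnaA07g20750D and -0.55 in BnaC08g24870D.

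In seeds the change from 7 to 14 DAF differed between the hybrids in 5 members. For Lumen minus Solar the difference was -3.38 in BnaC07g25600D, which is seed-restricted, and -1.58 in BnaA03g29210D, -1.05 in BnaA04g29580D, -0.79 in BnaA09g09970D and -0.41 in BnaC06g26740D, which are shared with siliques. BnaA04g29580D changed by -0.87 in Lumen and 0.19 in Solar, and BnaA03g29210D by -0.38 in Lumen and 1.20 in Solar.

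One library stood apart from the other 3 of its condition. In season 2 seeds replicate 2 of Solar control plots at 14 DAF had a mean log2 level of the shared members of 5.79, and the others had 5.63 to 5.65. In all 24 groups of 4 were examined in this way, and chance sets apart about 1 in 20 groups.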

How the results depend on the processing

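The list depends on its minimum level. Without a minimum mean value 51 of the 150 members were picked again, whereas with a pseudocount of 5 there were 128, with median-ratio rescaling 147, and with 1 replicate number left out 105 to 111. In seeds the count of heat calls was 0, but 2 with a minimum mean value of 20, 2 with a minimum of 5 in 47% of libraries, 6 at an adjusted p under 0.05, 1 with a replicate block and 1 without the season 1 library with the letter B, the last being an alternative chosen after seeing the data. In siliques the heat count of 3 was 0 with a minimum mean value of 20, 5 at an adjusted p under 0.05 and 0 with season 1 alone (limma, 10 members at an unadjusted p under 0.05). The silique time count of 66 was 5 with season 1 alone, and the silique season count of 90 was 47 with 14 DAF alone, also chosen after seeing the data. The causes were not tested, except that each season or sampling time alone uses fewer libraries. All other alternatives kept the total counts within 1.5 times, except that heat in siliques had 1 call without replicate 2.

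With 1 replicate number left out, the counts were 0 for heat, 74 to 86 for sampling time and 54 to 63 for hybrid in seeds. In siliques they were 64 to 86 for season, 1 to 3 for heat, 48 to 62 for sampling time and 38 to 43 for hybrid. No named member changed direction under any alternative, but some lost their call. In siliques these included BnaC06g06830D and BnaCnng26280D for heat (BnaCnng26280D also with season 1 alone, adjusted p = 0.192, limma). For sampling time they included BnaA03g00540D, and BnaC01g07710D with season 1 alone (adjusted p = 0.111, limma). For season BnaUnng00730D lost its call without replicate 3. Over all genes the deviations of same-numbered libraries had median correlations of -0.02 to 0.02 within a tissue and season, with single pairs at -0.30 to 0.37, so the numbers were not taken to pair the samples. In season 2 control seeds at 7 DAF, however, replicates 2 and 3 had the higher level of the seed-restricted genes in both hybrids. With the replicate number as a block 87 members were called for season in siliques, 85 for sampling time and 63 for hybrid in seeds, and 3 for heat, 66 for sampling time and 46 for hybrid in siliques.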

Other observations

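The largest number of members on one chromosome, by their identifiers, was 14 on A03. This is 9.33% of the members, beside 6.26% of the 9913 genes at the same minimum, and 5 of the 14 were seed-restricted. The mirror list, the 150 genes with the largest seed difference in the other direction, reached further: its largest fall was -7.09, against a largest member difference of 3.29, while its 150th gene was at -0.62, against 0.71 for the members.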
